A study of Homo sapiens with 16 samples.

Results

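Glycolysis turns glucose into pyruvate and yields ATP, and fast-growing lymphoma cells run it at a high rate and pass much of the pyruvate on to lactate. The genes followed here are 10 of the 19974 protein-coding genes of the RefSeq table on chromosomes 1 to 22 and X. In pathway order they are HK2, PFKL, ALDOA, TPI1, GAPDH, PGK1, PGAM1, ENO1, PKM and LDHA. They were chosen by name and function, with their covered base pairs and peak presence in inhibitor-treated and DMSO cells already known, so those values are a description and carry no test. For each gene the peaks of 3 histone marks were read over the gene and 5 kb on both sides, in build hg38.

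The cells were of the Toledo line, an established human diffuse large B-cell lymphoma line, grown in suspension. They spent 6 days with TP-064 at 5 uM, which inhibits CARM1, a methyltransferase acting on arginine, or with DMSO. ChIP-seq, the sequencing of DNA bound to a modified histone, used antibodies to H3K27ac, H3K4me1 and H3K4me3, with 2 libraries per mark and treatment, hence 12 peak lists. The 4 input samples are not analysed here. All groups are the same line, so the comparison speaks for that line, and whether replicates are separate cultures is not stated. Per the labels all DMSO libraries ran on lane 3 and all inhibitor libraries on lane 4, so the effects of lane and inhibitor cannot be told apart.

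H3K4me3 sits at the promoters of active and poised genes, H3K27ac marks promoters and enhancers in use and is placed by the acetyltransferases CREBBP and EP300, and H3K4me1 is most abundant at enhancers and at the flanks of promoters. CARM1 methylates histones and coactivators, these acetyltransferases among them. Genes of glycolysis have promoters rich in CpG dinucleotides, are transcribed in nearly all cells, and are raised further by the transcription factors HIF1 and MYC, which bind ACGTG-type sequences.

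The lists differed in length. They held 4016 to 7885 peaks for H3K27ac, 4094 to 25058 for H3K4me1 and 10048 to 12476 for H3K4me3, and carry no reads, so read depth is unknown and a missing peak may be a site under the caller's threshold. The DMSO libraries themselves differed, with 25058 and 9673 H3K4me1 peaks and 7885 and 4016 H3K27ac peaks in replicates 1 and 2. Of 7 B-cell markers, 6 had an H3K4me3 peak in all 4 lists and CD22 had one in the DMSO lists alone. No T-cell marker of 4 had H3K4me3 in any list, and 1 of 4 myeloid markers (LYZ, 16 to 469 bp) and 1 of 4 epithelial and stromal markers (COL1A1, DMSO lists alone) had some. In a bulk peak list, a mark at fewer cells and less of the mark per cell cannot be told apart.

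The printed promoter sequences let the genes that kept or lacked H3K27ac peaks be set side by side. In both DMSO lists its peaks covered all 250 bases at GAPDH, ENO1, LDHA and PFKL, and 0 bases at HK2 and PGK1. Each is the stretch of 250 bases just upstream of the transcription start that RefSeq lists first for the gene (GRCh38.p14), which for GAPDH lies 747 bp inside the gene model and for the other 5 genes is its 5' end. They are written 5' to 3' on the gene's strand, with ACGTG, the core that HIF1 binds and that the E-box CACGTG contains, in capitals on either strand. GAPDH (chr12:6535014-6535263, plus strand), ENO1 (chr1:8878687-8878936, minus strand) and HK2 (chr2:74833877-74834126, plus strand) had H3K27ac in both DMSO lists and in neither inhibitor list. LDHA (chr11:18394313-18394562, plus strand) and PFKL (chr21:44299803-44300052, plus strand) had it in 1 inhibitor list, and PGK1 (chrX:78103998-78104247, plus strand) in no list.
GAPDH: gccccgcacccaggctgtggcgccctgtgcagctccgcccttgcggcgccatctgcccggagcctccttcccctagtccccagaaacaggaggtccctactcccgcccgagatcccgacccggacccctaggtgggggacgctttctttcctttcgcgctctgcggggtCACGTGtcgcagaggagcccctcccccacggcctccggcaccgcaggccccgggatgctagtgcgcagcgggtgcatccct
ENO1: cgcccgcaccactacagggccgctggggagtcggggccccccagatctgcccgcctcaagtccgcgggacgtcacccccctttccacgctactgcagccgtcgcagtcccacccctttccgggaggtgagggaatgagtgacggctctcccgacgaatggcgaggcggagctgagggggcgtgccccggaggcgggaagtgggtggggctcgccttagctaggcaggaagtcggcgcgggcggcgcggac
HK2: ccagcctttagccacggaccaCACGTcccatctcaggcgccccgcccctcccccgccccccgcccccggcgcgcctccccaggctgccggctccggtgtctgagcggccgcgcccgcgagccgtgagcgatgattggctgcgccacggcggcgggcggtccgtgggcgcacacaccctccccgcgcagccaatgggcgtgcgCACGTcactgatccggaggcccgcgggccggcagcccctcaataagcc
LDHA: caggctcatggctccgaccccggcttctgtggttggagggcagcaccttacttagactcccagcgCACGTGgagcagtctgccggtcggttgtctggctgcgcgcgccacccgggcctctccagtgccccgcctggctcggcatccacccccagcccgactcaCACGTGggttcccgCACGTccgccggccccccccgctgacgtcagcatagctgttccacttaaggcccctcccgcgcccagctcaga
PFKL: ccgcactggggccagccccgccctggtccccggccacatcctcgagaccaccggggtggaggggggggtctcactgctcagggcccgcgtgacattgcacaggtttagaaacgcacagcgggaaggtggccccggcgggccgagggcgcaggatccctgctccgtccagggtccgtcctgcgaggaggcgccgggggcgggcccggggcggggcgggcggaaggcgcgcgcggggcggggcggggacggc
PGK1: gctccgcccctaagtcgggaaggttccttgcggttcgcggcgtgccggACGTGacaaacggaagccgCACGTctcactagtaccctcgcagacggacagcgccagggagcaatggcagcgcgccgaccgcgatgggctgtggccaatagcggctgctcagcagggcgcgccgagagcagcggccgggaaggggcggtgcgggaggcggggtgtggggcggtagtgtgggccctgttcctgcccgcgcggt

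Over the same 250 bases, ACGTG on either strand was present in 5 of the 10 genes (HK2, ALDOA, GAPDH, PGK1 and LDHA), against 20.8% of 15812 protein-coding promoters. LDHA held 5 matches and GAPDH 2, counted over both strands. An E-box CACGTG gives a match on each strand, and LDHA held 2 E-boxes and GAPDH 1. CACGTG was present in 7.83% of all promoters. The GC box GGGCGG, the site of SP1, was present in 8 of the 10 (all but ALDOA and LDHA), against 56.0%, CCAAT in 3 (HK2, PGK1 and PKM), against 34.4%, and TATAAA in 0, against 9.25%. TGACGTCA, the cyclic AMP response element, was present in LDHA alone of the 10 and in 2.32% of all. The median GC content was 71.2% for the 10 genes and 62.4% for all promoters, with a median of 27.5 and 17.0 CpG dinucleotides. Of the genes with no H3K27ac in either inhibitor list, GAPDH, HK2, ALDOA and PGK1 held ACGTG and ENO1, PGAM1 and PKM did not. Of those with the mark in an inhibitor list, LDHA held ACGTG and PFKL and TPI1 did not. At HK2, PGK1 and PGAM1 H3K27ac covered none of these 250 bases in any list. A link between the motif and the mark was not tested. A match to letters is a description and not a binding site.

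H3K27ac was missing from most of these genes in the inhibitor lists, and from some in a DMSO list. DMSO replicate 1 had a peak at 9 of the 10 genes (all but PGK1), DMSO replicate 2 at 5, inhibitor replicate 1 at 3 and inhibitor replicate 2 at 0. The same 4 lists had a peak at 30.7%, 16.5%, 16.0% and 14.3% of all protein-coding genes, and at 51.8%, 27.8%, 26.2% and 23.0% of the 10759 genes with H3K4me3 in all 4 lists. The list of inhibitor replicate 2 held 4595 peaks and that of DMSO replicate 2 held 4016, and the part of list length in these counts was not tested. Summed over the 10 genes, H3K27ac peaks covered 15.6 and 8.46 kb with DMSO and 4.11 and 0.0 kb with the inhibitor, a log2 ratio of the means of -2.55. Without inhibitor replicate 2 that ratio was -1.55.

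A gene is called lost here when both DMSO lists and neither inhibitor list had a peak in its window. Of the 5 genes with H3K27ac in both DMSO lists, 3 were lost (GAPDH, ENO1 and HK2), beside 25.0% of 3112 genes. Groups that do not overlap, with both inhibitor lists covering fewer bp than both DMSO lists, were found at 4 genes (the same 3 and PFKL), beside 24.8% of 6771 genes with the mark in any list. No gene of the 10 was gained or higher in both inhibitor lists, beside 0.9% of 13660 and 5.41% of 6771 genes. No gene of the 10 had the mark in all 4 lists, a class of 1670 genes of which 30.2% were lower in both inhibitor lists. Since 2 against 2 libraries allow no permutation p below 0.333, and the members were chosen with part of these values known, nothing is tested. Without DMSO replicate 2, 6 of 9 genes were lost, ALDOA, PGAM1 and PKM in addition, beside 45.7% of the genes with the mark in DMSO replicate 1, and 8 were lower, beside 81.5%. Without inhibitor replicate 1, 5 of 5 were lost, PFKL and LDHA in addition, beside 38.5%. In lists of equal length, made by keeping the widest peaks of each, GAPDH alone was lost, of 3 genes with the mark in both DMSO lists, beside 19.7% of all genes counted so, and GAPDH and PFKL were lower in both inhibitor lists, beside 21.5%. The log2 ratio of summed bp was -2.52 in those lists.

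HK2, the inducible hexokinase that traps glucose in the cell, lies on chromosome 2 from 74834127 to 74893359. Its peak covered 1247 and 1384 bp with DMSO and 0 bp in both inhibitor lists. Here the DMSO peaks began downstream of the 5' end, at 225 and 356 bp, and ended at 1471 and 1739 bp, so they spanned the gene's second listed start and not the upstream bases printed above. The nearest peak in both inhibitor lists was 326 kb away, at PCGF1.

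PFKL, the liver-type subunit of phosphofructokinase and the committing step of glycolysis (chromosome 21, 44300053 to 44327373), had 2153 and 1852 bp with DMSO, 1155 bp in inhibitor replicate 1 and 0 bp in inhibitor replicate 2. Both inhibitor values lay below both DMSO values, and the nearest peak in inhibitor replicate 2 was 96.2 kb away, at TRPM2.

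Of the DMSO lists, replicate 1 alone had the mark at ALDOA, TPI1, PGAM1 and PKM, and neither had it at PGK1. TPI1, which interconverts the triose phosphates (chromosome 12, 6867420 to 6870948), had 1281 bp in DMSO replicate 1 and 1068 bp in inhibitor replicate 1, with 0 bp in the second library of both groups. ALDOA, the aldolase (chromosome 16, 30064279 to 30070420), had 2014 bp in DMSO replicate 1 alone, PKM, the pyruvate kinase (chromosome 15, 72199029 to 72231591, minus strand), 1478 bp, and PGAM1, the phosphoglycerate mutase (chromosome 10, 97426191 to 97433444), 1042 bp. For these 4 genes the spread between the DMSO libraries was as large as their value. PGK1, the ATP-forming phosphoglycerate kinase on the X chromosome (78104248 to 78129295), had no H3K27ac peak in any list, and the nearest ones of the inhibitor lists were 520 and 521 kb away.

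GAPDH, which oxidises glyceraldehyde phosphate and makes NADH, lies on chromosome 12 from 6534517 to 6538371. Its H3K27ac peak covered 3019 and 2385 bp in the DMSO lists and 0 bp in both inhibitor lists. The DMSO peaks reached from -1534 to 1484 bp and from -1401 to 983 bp around the gene's 5' end, and contained the whole 250-base stretch printed above. They were among the wider peaks of their lists, at width percentiles of 83.6 and 78.5. As a description by the covered bp that the rule used, 26 of the 791 genes with at least as many bp in both DMSO lists (3.29%) were lost. The same share was 11.1% for ENO1 and 16.0% for HK2. For PFKL and LDHA, which were not lost, it was 7.25% and 14.2%. Each cut is the gene's own DMSO value, so the shares are no test of its loss. Covered bp are summed over a gene's window, and a gene with several peaks is lost only when all are missing. These shares are therefore not rates for single peaks of such widths. The lost genes as a whole had a median of 1196 bp in the smaller DMSO list, against 1765 bp for those kept in at least 1 inhibitor list. The nearest H3K27ac peaks of the inhibitor lists were 68.1 kb away, at CHD4, and 40.5 kb away, at MRPL51. The peak touched no other protein-coding gene.

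ENO1, the enolase that forms phosphoenolpyruvate, lies on chromosome 1 from 8861000 to 8878686 on the minus strand. Its H3K27ac peak covered 1568 and 1518 bp in the DMSO lists and 0 bp in both inhibitor lists, and reached from -698 to 869 bp and from -743 to 774 bp. These peaks had middling widths for their lists, at percentiles of 40.3 and 48.0. The nearest peaks of the inhibitor lists were 356 kb away at H6PD and 432 kb away at RERE, both outside its window.

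LDHA, which reduces pyruvate to lactate (chromosome 11, 18394563 to 18408425), had 1803 and 1318 bp with DMSO, 1890 bp in inhibitor replicate 1 and 0 bp in inhibitor replicate 2. Inhibitor replicate 1 was the highest of the 4 there and its peak lay further downstream, from -140 to 1749 bp, against -533 to 1269 and -451 to 866 bp with DMSO.

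**Figure D1:**
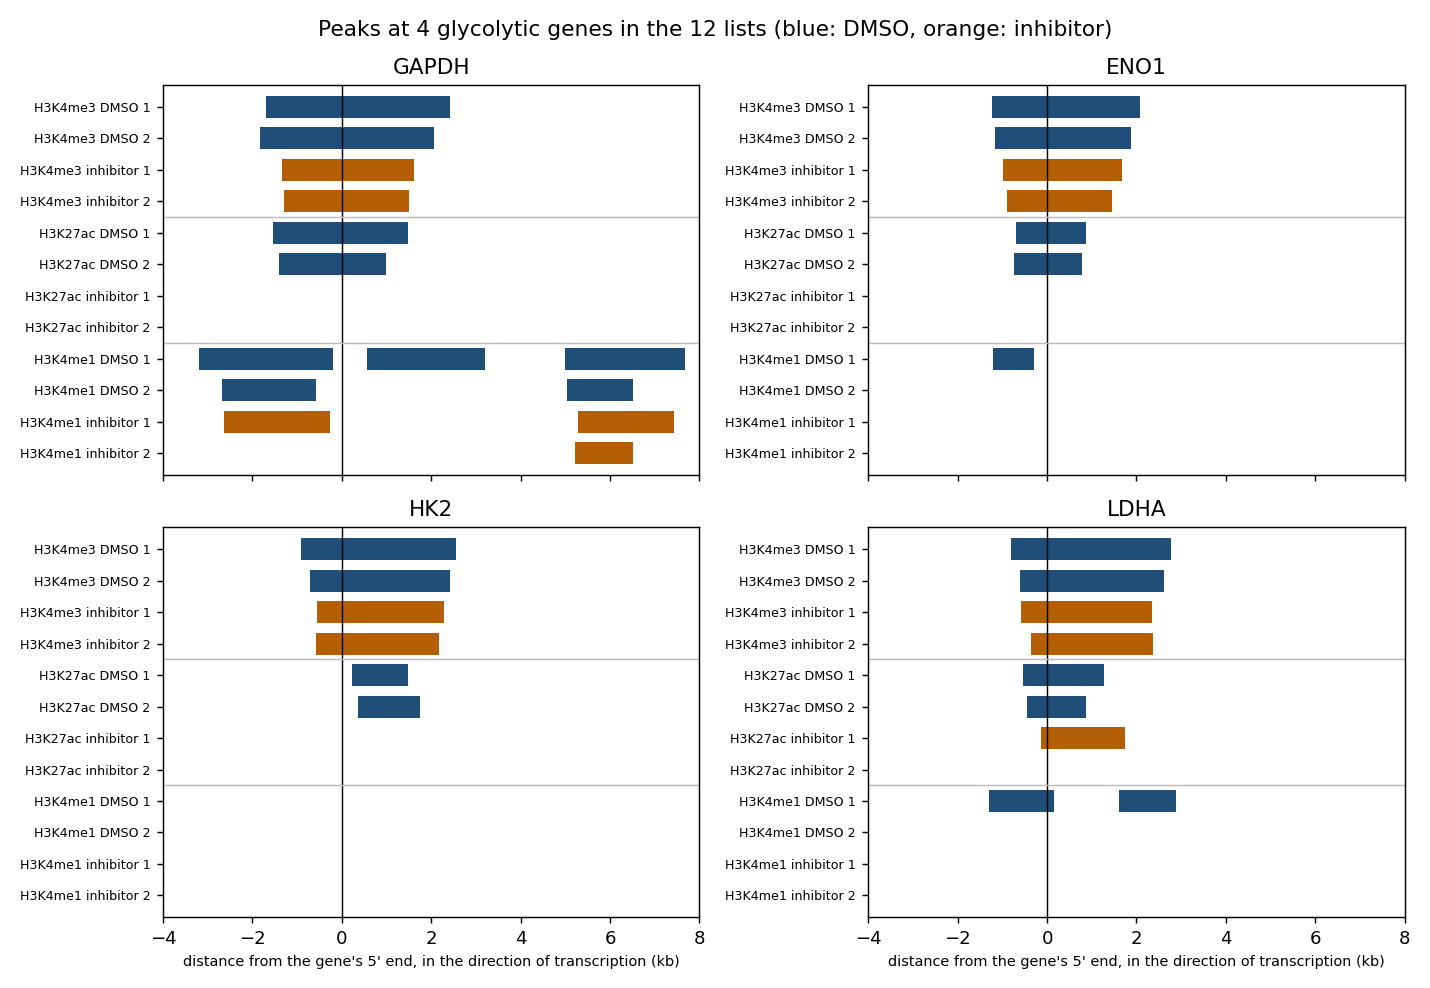
Peaks of the 12 lists at GAPDH, ENO1, HK2 and LDHA, as bars along the distance in kb from the gene's 5' end in the direction of transcription (blue, DMSO; orange, CARM1 inhibitor). H3K4me3 bars are present in all 4 lists at each gene, H3K27ac bars are absent from both inhibitor lists at GAPDH, ENO1 and HK2, and an H3K4me1 peak of 2147 bp inside HK2 in DMSO replicate 1 lies beyond the axis.

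H3K4me1 flanked the promoters of some of the genes and was absent from others. DMSO replicate 1 had a peak at 9 of the 10 (all but PGK1), DMSO replicate 2 at 5, inhibitor replicate 1 at 3 and inhibitor replicate 2 at 2, beside 49.0%, 22.3%, 11.5% and 11.9% of all genes. Summed coverage was 39.5 and 17.9 kb with DMSO and 11.8 and 3.8 kb with the inhibitor, a log2 ratio of the means of -1.88. In lists of equal length that ratio was -0.41. Leaving out DMSO replicate 1 gave -1.20. Leaving out inhibitor replicate 2 gave -1.28, and its counterpart inhibitor replicate 1 gave -2.92. The mean sums were 28.7 ± 15.3 kb for DMSO and 7.81 ± 5.67 kb for the inhibitor (SD, n = 2). Whole H3K4me1 lists were lower as well, so a drop was not particular to these genes. Their peaks spanned 60.4 Mb in DMSO replicate 1 and 22.1 Mb in DMSO replicate 2. For inhibitor replicates 1 and 2 that span was 9.11 and 8.3 Mb. Of the 5 genes with the mark in both DMSO lists, PGAM1 and PKM were lost, beside 42.0% of 4411 genes. In lists of equal length only 2 genes, PFKL and TPI1, had the mark in both DMSO lists, and 0 were lost, beside 14.6%. PFKL alone was lower in those lists, beside 37.4%. Both inhibitor values lay below both DMSO values at 4 genes (PFKL, TPI1, PGAM1 and PKM), beside 40.4% of 9895 genes. Of the 2 genes with the mark in all 4 lists, PFKL and GAPDH, 1 was lower in both, beside 83.8% of 1497 genes. No gene of the 10 was gained, beside 0.0296% of 10139 genes. Without DMSO replicate 2, 6 of 9 genes were lost and 9 of 9 were lower, beside 69.3% and 98.6% of the genes counted the same way.

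At PFKL the H3K4me1 peaks covered 10302 and 7780 bp in the DMSO lists and 4209 and 2494 bp in the inhibitor lists. A wide DMSO peak of 6727 and 6030 bp lay upstream, in part outside the window, and reached into AIRE, the neighbouring gene, and its counterparts measured 2635 and 1167 bp in the inhibitor lists. A second peak inside PFKL measured 3272 and 3016 bp with DMSO, against 2428 and 1727 bp with the inhibitor. PFKL was also the only one of the 10 genes lower in both inhibitor lists in all 3 marks, as were 589 of all 19974 protein-coding genes. The share among genes that carry all 3 marks was not computed.

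GAPDH, in contrast to its H3K27ac, kept H3K4me1 in all 4 lists, with 8320 and 3568 bp with DMSO, against 4510 and 1304 bp with the inhibitor, so the groups overlapped. The part in all 4 lists was a peak downstream of the gene in IFFO1 (2702, 1481, 2143 and 1304 bp). A peak upstream that touched NCAPD2 was present in both DMSO lists (2982 and 2087 bp) and in inhibitor replicate 1 (2367 bp). A further peak inside the gene (2636 bp) was present in DMSO replicate 1 alone.

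TPI1 had 6968 and 3554 bp of H3K4me1 with DMSO, against 3101 and 0 bp with the inhibitor, part of it over the neighbours USP5 and SPSB2. PKM had 3963 and 1744 bp against 0 and 0 bp, and PGAM1 had 1273 and 1254 bp against 0 and 0 bp. HK2 (2147 bp), ALDOA (2922 bp), LDHA (2710 bp) and ENO1 (918 bp) had the mark in DMSO replicate 1 alone, the longest list.

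**Figure D2:**
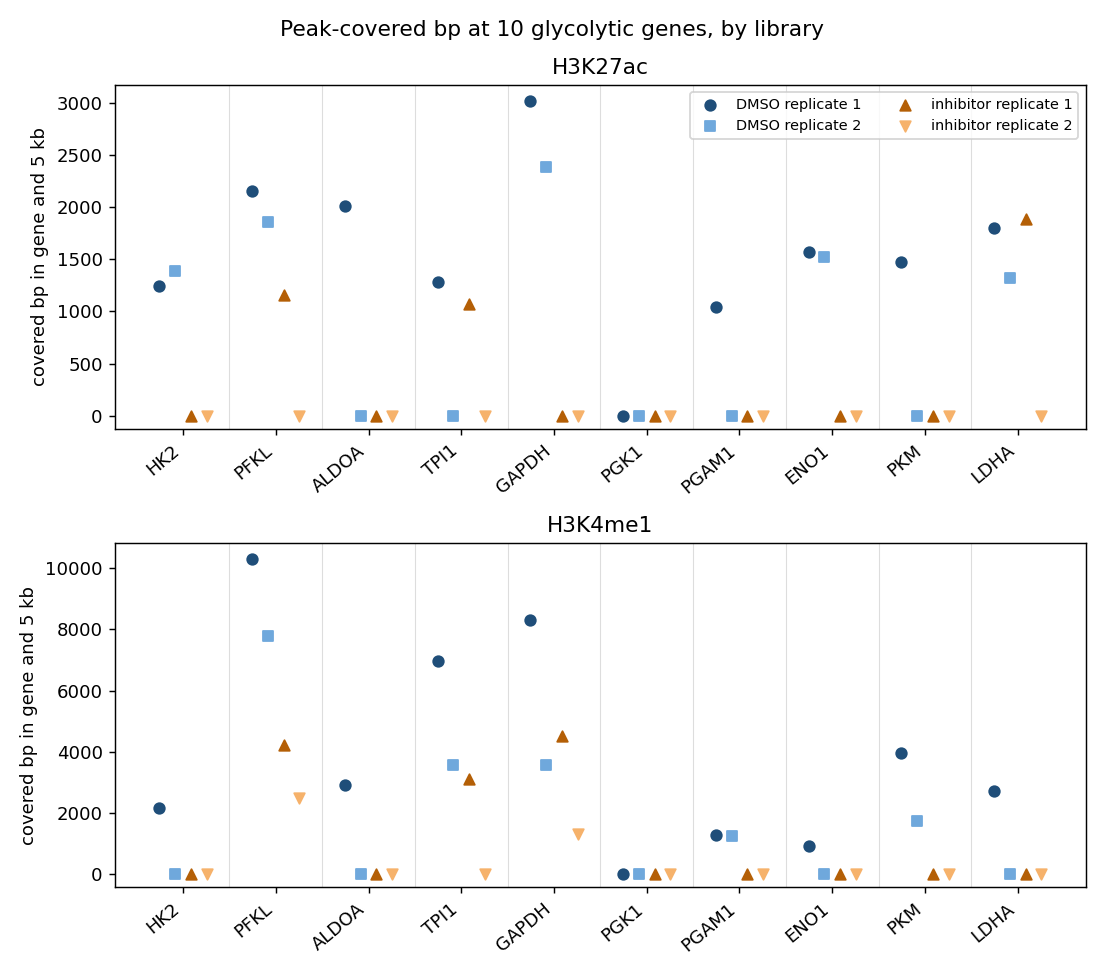
Base pairs covered by H3K27ac (top) and H3K4me1 (bottom) peaks in each gene and 5 kb around it, 1 point per library, genes in pathway order; a point at 0 means no peak in that list. At GAPDH the H3K27ac points are 3019 and 2385 bp with DMSO and 0 with the inhibitor, and at PGK1 every point of both marks is at 0.

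H3K4me3 was present at all 10 genes in all 4 lists, and at each of them both inhibitor lists covered fewer bp than both DMSO lists. The count of 10 of 10 stands beside 84.0% of the 10759 genes with the mark in all 4 lists, and 81.6% of the 12306 genes with it in any. No gene of the 10 was lost, beside 5.34% of 11825 genes, and none could be gained, beside 0.104% of 7728 genes without the mark in DMSO cells. Summed coverage was 36.2 and 32.9 kb with DMSO and 27.8 and 25.5 kb with the inhibitor, or 34.6 ± 2.38 kb against 26.7 ± 1.66 kb (SD, n = 2), a log2 ratio of -0.37. The median log2 ratio of the 10 genes was -0.36 (lowest -0.60, highest -0.24), against -0.28 for the 10759 genes, whose quartiles were -0.42 and -0.18. Among the 4036 genes whose DMSO mean lay in the range of the members (2648 to 4765 bp), the median was -0.29.

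The order of the log2 ratios among the 10 genes ran from PFKL and PGAM1 to HK2. PFKL had 2954 and 2382 bp in the DMSO lists and 1913 and 1601 bp in the inhibitor lists, a log2 ratio of -0.60. PGAM1 had 3124 and 3116 bp against 2318 and 1827 bp, a log2 ratio of -0.59. At PGAM1 the nearest libraries of the groups were 798 bp apart, more than the replicates of either group. At PFKL they were 469 bp apart, less than its DMSO libraries. Both ratios lay below the lower quartile of all genes.

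GAPDH had 4119 and 3888 bp against 2953 and 2793 bp, a log2 ratio of -0.48, and its DMSO peaks stood at width percentiles of 96.4 and 96.6 in their lists. The mean was 4003.5 ± 163 bp with DMSO and 2873 ± 113 bp with the inhibitor (SD, n = 2), with 91.5 and 92.0 as the percentiles in the inhibitor lists. GAPDH, with no H3K27ac peak in either inhibitor list, thus still had a wide H3K4me3 peak for its list. This was not particular to GAPDH. The percentiles in the inhibitor lists were 89.6 and 91.4 at HK2 and 86.0 and 81.8 at ENO1, also lost for H3K27ac. They were 90.9 and 91.3 at LDHA, which had H3K27ac in 1 inhibitor list. Next in the order, PKM had 3831 and 3191 bp against 2731 and 2546 bp (-0.41). Its nearest libraries of the groups were 460 bp apart, less than its DMSO libraries. ALDOA had 3944 and 3991 bp against 3266 and 2889 bp (-0.37). Of these, 320 and 524 bp against 222 and 124 bp were the edge of a second peak, at the nearby gene PPP4C. The peak over the 5' end of ALDOA measured 3624 and 3467 bp against 3044 and 2765 bp, so its ratio rests in part on that edge.

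ENO1 had 3328 and 3049 bp against 2656 and 2343 bp, a log2 ratio of -0.35. PGK1, without the other marks, had 2794 and 2502 bp against 2141 and 2225 bp (-0.28). In inhibitor replicate 1 its peak was split into pieces of 719 and 1422 bp. TPI1 had 5103 and 4427 bp against 4098 and 3767 bp (-0.28), of which 2565, 2088, 1911 and 1860 bp were a second peak at SPSB2. Without the flanks TPI1 was the gene whose groups overlapped, which left 9 of 10, beside 70.6% of all genes. LDHA had 3581 and 3215 bp against 2916 and 2743 bp (-0.26), and HK2 had 3470 and 3121 bp against 2844 and 2755 bp (-0.24). For PGK1, TPI1, LDHA and HK2 the log2 ratio was close to the median of all genes. As at PFKL and PKM, the nearest libraries of the groups at each of them lay closer together than the DMSO libraries.

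**Figure D3:**
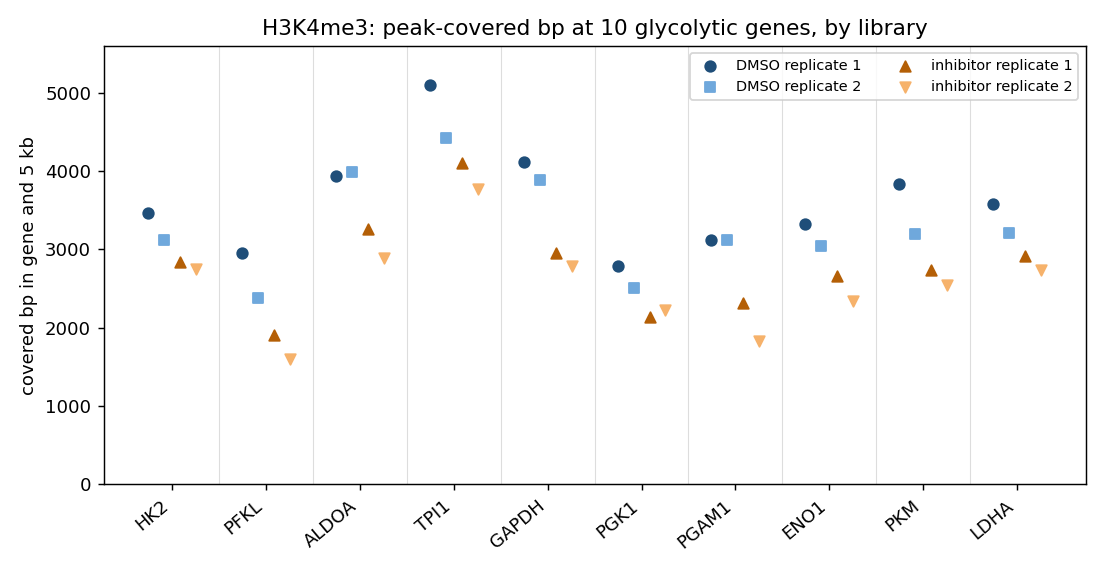
Base pairs covered by H3K4me3 peaks in each gene and 5 kb around it, 1 point per library, genes in pathway order, axis from 0. At every gene the 2 inhibitor points lie below the 2 DMSO points, with the narrowest gap between groups at TPI1, PGK1, HK2 and LDHA.

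**Figure D4:**
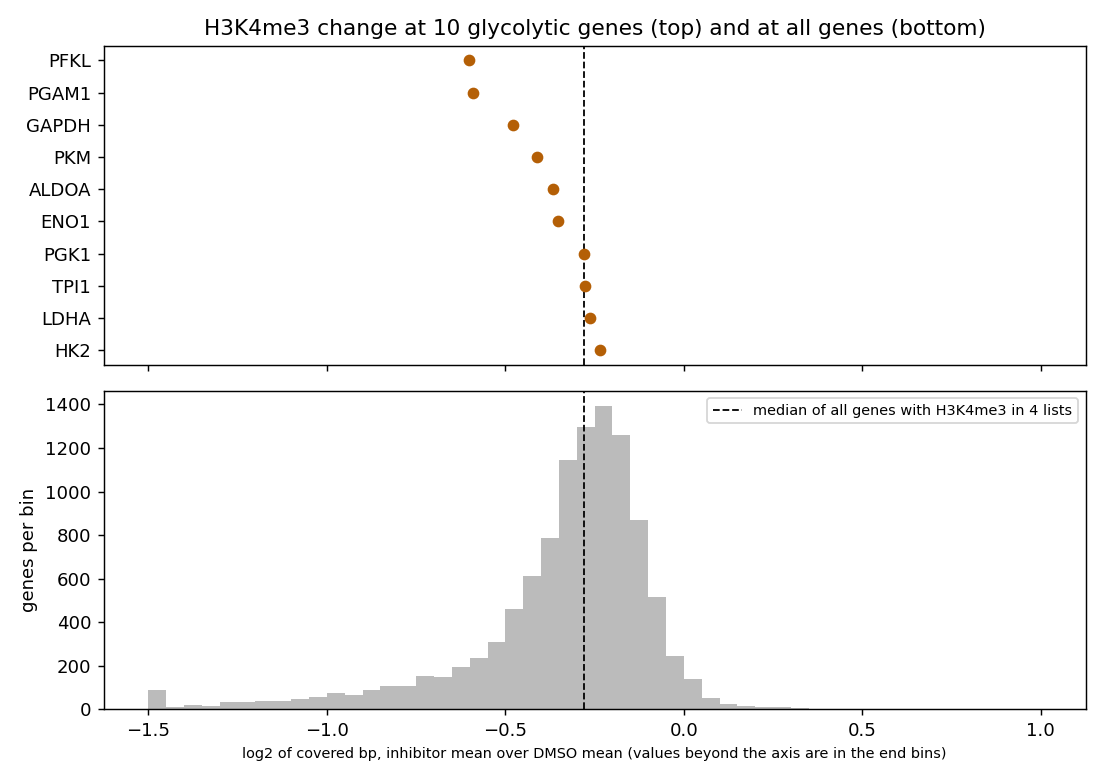
Log2 ratio of H3K4me3 covered bp (inhibitor mean over DMSO mean) for the 10 genes (top, 1 point per gene) and as a histogram for the 10759 genes with the mark in all 4 lists (bottom, bins of equal width, with the values beyond the axis put in the end bins); the dashed line is their median of -0.28. PFKL and PGAM1 lie farthest to the left of the line and HK2 farthest to its right.

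The edges of the H3K4me3 peak over the 5' end show on which side the peaks were narrower. From the DMSO mean to the inhibitor mean, the upstream edge lay a median of 248 bp closer to the 5' end and the downstream edge a median of 389.5 bp closer, against 179.5 and 188 bp over 7499 genes with such a peak in all 4 lists. The downstream shift was the larger of the pair at 7 of the 10 genes and at 51.8% of the 7499. Non-overlap of edges was counted at the 10 genes only, so no share of all genes stands beside it. The downstream edges did not overlap between groups at 9 genes. TPI1 was the exception, with edges at 1804 and 1585 bp against 1595 and 1277 bp. Upstream edges did not overlap at 9 genes either, PGK1 being the exception. Its peak is split in inhibitor replicate 1, and with the pieces joined, a choice made after seeing the data, its upstream shift was 70.5 bp in place of 464 bp. The downstream shift was then the larger at 8 of the 10 genes, and the median upstream shift was 241.5 bp.

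The largest downstream shift was at PGAM1, where the edge lay at 2122 and 2023 bp with DMSO and at 1347 and 1180 bp with the inhibitor, a shift of 809 bp. The start that RefSeq lists for PGAM1, 1627 bp inside the gene model, thus lay within the DMSO peaks and outside the inhibitor peaks. PKM (699.5 bp), GAPDH (679.5 bp) and PFKL (666.5 bp) followed. At GAPDH the upstream edge also lay 451 bp closer in. HK2 (251.5 bp upstream, 244.5 bp downstream) and ALDOA (343 and 298 bp) had the larger shift upstream, and PGK1 (464 and 360.5 bp) had it only with the split peak read as it stands.

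**Figure D5:**
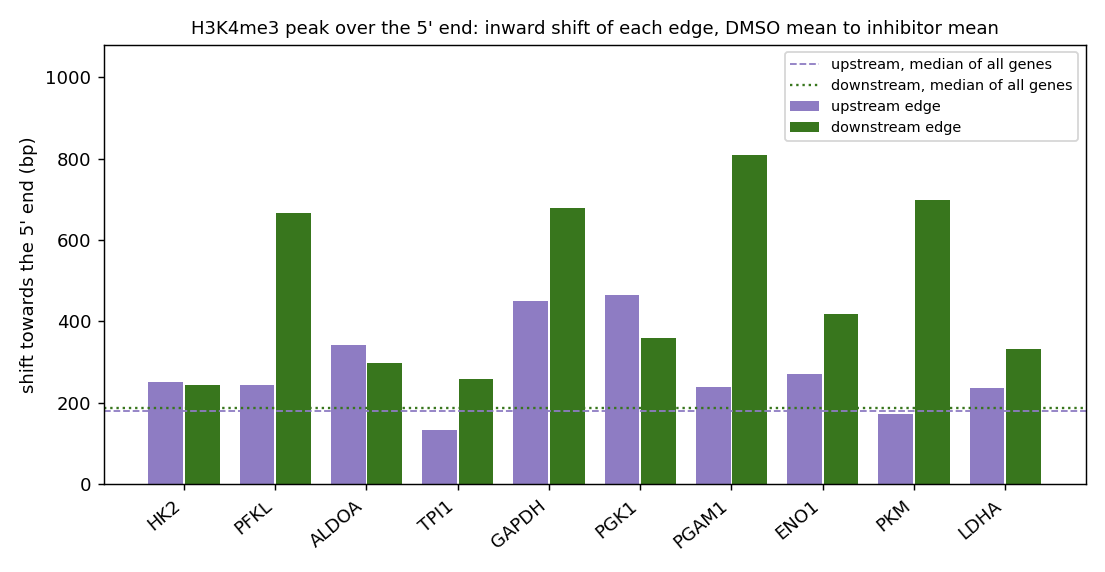
Inward shift in bp of the upstream and the downstream edge of the H3K4me3 peak over each gene's 5' end, from the mean of the 2 DMSO lists to the mean of the 2 inhibitor lists; the dashed and dotted lines are the medians over 7499 genes (179.5 and 188 bp). The downstream bar is tallest at PGAM1 (809 bp), and the upstream bar of PGK1 (464 bp) rests on a split peak in 1 list and is 70.5 bp with its pieces joined.

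By distance over the 12 lists on log2(covered bp + 100), the genes most like GAPDH were CDCA4 (0.82), ITPR2 (1.32) and EEF1G (1.39), and those most like ENO1 were HNRNPAB (0.26), CHERP (0.47) and CNOT9 (0.52). CDCA4 had 2353 and 2366 bp of H3K27ac with DMSO and 0 bp in both inhibitor lists, with 3988 and 3661 bp of H3K4me3 against 2448 and 2492 bp. HNRNPAB had 1411 and 1360 bp of H3K27ac against 0 and 0 bp, with 3334 and 3186 bp of H3K4me3 against 2779 and 2562 bp. CDCA4 and HNRNPAB were picked on these same covered bp, so their likeness to GAPDH and ENO1 follows from that choice. The list sizes and the lane are shared by all these genes.

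Other enzymes of the pathway carried less H3K27ac. Of 21 further isozymes and steps, 6 had the mark in any list, beside 6771 of all 19974 protein-coding genes. PFKM, the muscle-type phosphofructokinase, was the 1 with it in both DMSO lists (2122 and 1884 bp, against 0 and 1471 bp with the inhibitor). None of the 21 was lost for H3K27ac, a call open to PFKM alone, beside 25.0% of 3112 genes. None was gained, beside 0.9% of 13660 genes. H3K4me3 was present in all 4 lists at 12 of them and lower in both inhibitor lists at 11, beside the 84.0% of all genes, with a median log2 ratio of -0.29. LDHB, the heart-type lactate dehydrogenase, was the exception (2497 and 2359 bp against 2405 and 2117 bp). ENO3 had 4308 and 3953 bp against 2870 and 2935 bp, and ENO2 3593 and 3188 bp against 2509 and 1639 bp. For H3K4me1, 3 of the 4 with the mark in both DMSO lists were lost, beside the 42.0% of all genes: PFKP (7549 and 3498 bp with DMSO), ENO2 (6222 and 1254 bp) and PKLR (3164 and 1241 bp).

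Transporters and regulators of the pathway included a gene that went the other way. Of 17 genes, 3 had H3K27ac in both DMSO lists and 0 of these were lost, beside 25.0% of 3112 genes. SLC2A1, the glucose transporter GLUT1, had 3579 and 915 bp against 1188 and 0 bp, and HIF1A had 1083 and 1143 bp against 1107 and 0 bp. SLC16A7, a transporter of pyruvate and lactate on chromosome 12 (59596029 to 59789841), had 1882 and 1334 bp of H3K27ac with DMSO, against 7610 and 7170 bp with the inhibitor. It had 2758 and 2915 bp of H3K4me3 against 4903 and 10737 bp, and 1648 and 0 bp of H3K4me1 against 2462 and 3288 bp. The groups did not overlap in any of the 3 marks, which was so in this direction for 2 protein-coding genes in all, PROX1 being the other. H3K4me3 was higher in both inhibitor lists at 0.593% of 12306 genes, and H3K4me1 at 0.121% of 9895.

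At the SLC16A7 promoter the H3K4me3 peak measured 2758 and 2915 bp with DMSO, against 2585 and 2849 bp with the inhibitor, so the added bp lay elsewhere. They were peaks inside the gene, 56.5 and 105 kb from the 5' end in inhibitor replicate 2 alone and 190 kb from it in both inhibitor lists. The H3K27ac peak over the 5' end measured 1882 and 1334 bp with DMSO, against 2183 and 3129 bp with the inhibitor. The H3K27ac peaks inside the gene did not coincide between the inhibitor lists, at 20.5 kb in replicate 1 and at 56.8 and 104 kb in replicate 2. The H3K27ac sum was thus alike in both inhibitor libraries while the sites inside the gene were not. H3K4me1 had a site in both inhibitor lists, from 22.8 to 25.2 kb and from 23.9 to 25.4 kb.

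For H3K4me3, 12 of the 15 transport and control genes with the mark in all 4 lists were lower in both inhibitor lists, beside 84.0% of all genes, with a median log2 ratio of -0.30. PDK2, a kinase that restrains pyruvate dehydrogenase, was lost (1480 and 1434 bp with DMSO). It was 1 of 16 genes with the mark in both DMSO lists, beside 5.34% of 11825 genes lost. For H3K4me1, 3 of 5 were lost (SLC2A3, BSG and ARNT), beside 42.0% of all genes, and SLC2A1 (21032 and 9320 bp against 3501 and 4749 bp) and the lactate exporter SLC16A3 (16259 and 6624 bp against 4990 and 3806 bp) were lower in both inhibitor lists.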

How the data were processed

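The submitters' processing notes name Bowtie 1.1.2 for software, MACS 1.4.2 and build hg38. Their roles, the peak threshold, read filters and any use of inputs: not given in the sources used here. For each ChIP library the authors deposited a list of peaks with 3 columns (chromosome, start, end) and no score. The starts of the lists were read as counted from 0 and are printed counted from 1. Genes and promoters came from RefSeq (GRCh38.p14), and all 10 genes matched by symbol in both tables. Peaks were clipped to the gene and 5 kb on both sides, and at least 1 covered bp counted as present. A gene's 5' end is the end of its gene model on its strand, which the promoter table gives. The same calls over all protein-coding genes are printed beside the counts. Alternatives used no flank, a 10 kb flank, 2 kb around listed starts (15812 genes), at least 500 bp, lists cut to the widest peaks of equal number, and each library left out in turn. Genes and lists were chosen with earlier results of these data known, and the rule named all 10 genes in each mark, members of the further lists whose groups separated (up to 6 per list and mark), and the 3 genes nearest to GAPDH and to ENO1 outside 50 kb. LDHB and HIF1A, outside that rule, were named after their values were seen, as were SLC2A1 and PC for H3K27ac and PROX1. The rule put the widest DMSO coverage first, an order not kept throughout. For H3K4me3, PFKM was not named (4940 and 4411 bp with DMSO, 3632 and 3587 bp with the inhibitor), though its groups separated. Gene counting was tested on simulated peaks, using Python 3.11.15 and numpy 2.4.6.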

Additional observations from a re-analysis of the deposited data

How the results depend on the processing

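The counts for H3K27ac and H3K4me1 rested on which lists were compared. In lists of equal length, 3 genes in place of 5 had H3K27ac in both DMSO lists, and 2 in place of 5 had H3K4me1. For H3K27ac, 1 gene (GAPDH) was then lost in place of 3 and 2 were lower in both inhibitor lists in place of 4. The H3K27ac log2 ratio of summed bp was -2.52 in place of -2.55. For H3K4me1, 0 were lost in place of 2, 1 was lower in place of 4, and the log2 ratio was -0.41 in place of -1.88. With each library left out in turn, H3K27ac gave 3 to 6 lost and 4 to 8 lower, and H3K4me1 gave 2 to 6 lost and 4 to 9 lower, the highest values all without DMSO replicate 2. For H3K27ac without inhibitor replicate 1 no ratio of summed bp could be given, since inhibitor replicate 2 covered 0 bp. The flank, the 2 kb windows and the 500 bp minimum left the lost and lower counts of H3K27ac and H3K4me1 as they were, and no ratio was computed for the 500 bp minimum. For H3K4me3, 0 genes were lost under every alternative and 10 were lower, except 9 without the flank. Joining the split PGK1 peak, chosen after seeing the data, moved the genes with the larger downstream shift from 7 to 8. The cause of the differences was not tested. No paired analysis was possible because no result comes from a test. Without reads, the depth behind a missing peak is unknown.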

Other observations

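Branches that leave or reverse glycolysis (the pentose phosphate pathway, serine synthesis and gluconeogenesis) were read in the same way. Of 18 genes, 3 had H3K27ac in both DMSO lists. Of these 3, PCK2, the mitochondrial phosphoenolpyruvate carboxykinase, was lost (1321 and 960 bp with DMSO), beside 25.0% of 3112 genes. PGLS, of the pentose phosphate pathway, had 4409 and 2996 bp against 2373 and 1301 bp with the inhibitor, so its groups did not overlap. Pyruvate carboxylase (PC) had 746 and 353 bp against 724 and 587 bp, with overlap.

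H3K4me3 was in all 4 lists at 13 of the 18 genes and lower in both inhibitor lists at 12 of these, beside 84.0% of all genes, with a median log2 ratio of -0.29. SHMT2, the mitochondrial serine hydroxymethyltransferase, had 4457 and 2710 bp against 1576 and 1607 bp. FBP2, a fructose bisphosphatase, was lost (1266 and 1429 bp with DMSO). It was 1 of 14 genes with H3K4me3 in both DMSO lists, beside 5.34% of 11825 genes lost. For H3K4me1, PGLS (7578 and 2887 bp with DMSO), TALDO1 (3574 and 1432 bp) and FBP1 (10564 and 1441 bp) were lost of 4 genes, beside 42.0% of all genes, and SHMT2 kept it with 14913 and 14390 bp against 8677 and 6453 bp.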
